A study of Zea mays with 4 samples.

Results

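Partnered peaks of chromosome 2 are entries of the anti-ZmbZIP22 peak lists that lie on that chromosome and have a summit of the other replicate's list within 500 bp. Each list held 238 of them, out of 1961 peaks in replicate 1 and 1791 in replicate 2. They made up 15.4% of the 1550 partnered peaks of each list (exact 95% interval 13.6% to 17.2%, counting error only). On chromosome 2 itself they were 82.9% of the 287 peaks of replicate 1 and 89.8% of the 265 peaks of replicate 2. Whether entries were kept for their nearness to a peak of the other replicate before deposit was not established, so these shares are not rates of replication.

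The lists come from chromatin immunoprecipitation followed by sequencing (ChIP-seq), which recovers DNA crosslinked to a protein and maps it to the genome. The tissue was endosperm of wild-type maize kernels at 15 days after pollination. There were 2 anti-ZmbZIP22 libraries, made with an antibody produced by the submitters, and 2 libraries made with nonspecific immunoglobulin (IgG) as the antibody control. Peak values were analysed for the anti-ZmbZIP22 libraries, and no IgG values were analysed here. Whether each replicate had its own plants or kernels is not stated in the labels.

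ZmbZIP22 belongs to the basic leucine zipper transcription factors, which bind DNA as dimers through a basic region, commonly at sites with an ACGT core. In maize endosperm, factors of this class, among them Opaque2, regulate zein genes, which encode the main storage proteins of the seed. ZmbZIP22 is known for its action on a gamma-zein gene.

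Members were chosen by the positions of summits in both lists, so the values below are descriptions of the lists and carry no test. Pileup is the height at the summit in fragments as the peak caller scaled them, and fold enrichment is its ratio to the local background. The 500 bp limit had no close cases on chromosome 2. The partnered summits farthest from each other were 394 bp apart, at 211562919 in replicate 1 (pileup 15.76, 3.46-fold) and 211562525 in replicate 2 (pileup 33, 4.39-fold). The nearest peaks outside the limit were a replicate 1 peak with its summit at 37227230, 18893 bp from any replicate 2 summit (pileup 151, 60.7-fold), and a replicate 2 peak at 46149100, 32293 bp from any replicate 1 summit (pileup 301, 65.7-fold). The peaks without a partner are called lone here, and chromosome 2 had 49 lone entries in replicate 1 and 27 in replicate 2. All of these were strongly enriched, at 25.4-fold or more in replicate 1 (median 38.8) and 25.7-fold or more in replicate 2 (median 40.6). Some lone entries of replicate 1 lay together, with 3 of 48 gaps between neighbouring summits at most 1 kb and the smallest 0 bp. Each entry is counted separately here. Positions are as the files give them. The genome build is not given in the sources used here, so the genes and sequences at these positions were not analysed here.

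Partnered peaks were found along nearly the whole of chromosome 2 but were unevenly spread. The first had its replicate 1 summit at 442701 and the last at 237684456, a span of 237.2 Mb. All 24 windows of 10 Mb held at least 1 member, with a median of 8.5 and a range of 1 to 24. Both replicates gave the same count in all 24 windows, which follows from choosing members by closeness. The 6 fullest windows held 109 of the 238 members, or 45.8%, a share that is high by the choice of windows.

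Members were dense in a pair of stretches, picked out after the counts were seen. The windows from 30 to 60 Mb held 19, 19 and 16 members, or 22.7% of all members in 12.5% of the 240 Mb covered by the windows. Those from 160 to 190 Mb held 14, 24 and 15 members, or 22.3% in a stretch of the same length. The window from 170 to 180 Mb had the highest count of the chromosome. Between these stretches, from 60 to 160 Mb, there were 90 members, an average of 9 per 10 Mb. The window from 80 to 90 Mb stood out among these with 16 members, as many as that from 50 to 60 Mb.

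The far end of the chromosome was sparse. From 190 to 240 Mb there were 16 members, or 6.72%, an average of 3.20 per 10 Mb, and the last window held 1. The windows from 120 to 140 Mb held 4 members each. The first window held 3 members.

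Lone peaks of the same chromosome, which were all more enriched than the median member, had other shares in these stretches. In replicate 1 every lone entry (lowest 25.4-fold) was above every member (highest 10.6-fold). The lone entries of replicate 1 also had whole-number pileups, which none of its members had, so the sets compared are unlike in more than position. The dense and sparse stretches were picked by their member counts, so the member shares there are high or low by choice. From 190 to 240 Mb lay 6.72% of the members, against 36.8% of lone entries (28 of 76, both lists together). By list these were 16 of 49 in replicate 1 and 12 of 27 in replicate 2. From 160 to 190 Mb lay 22.3% of the members and 10.5% of the lone entries (7 of 49 in replicate 1 and 1 of 27 in replicate 2). In the other dense stretch, from 30 to 60 Mb, lay 22.7% of the members and 15.8% of the lone entries. The lists differed there, with 4 of 49 lone entries in replicate 1 and 8 of 27 in replicate 2. The first 120 Mb held 58.8% of the members and 38.2% of the lone entries. The difference was not tested.

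**Figure D1:**
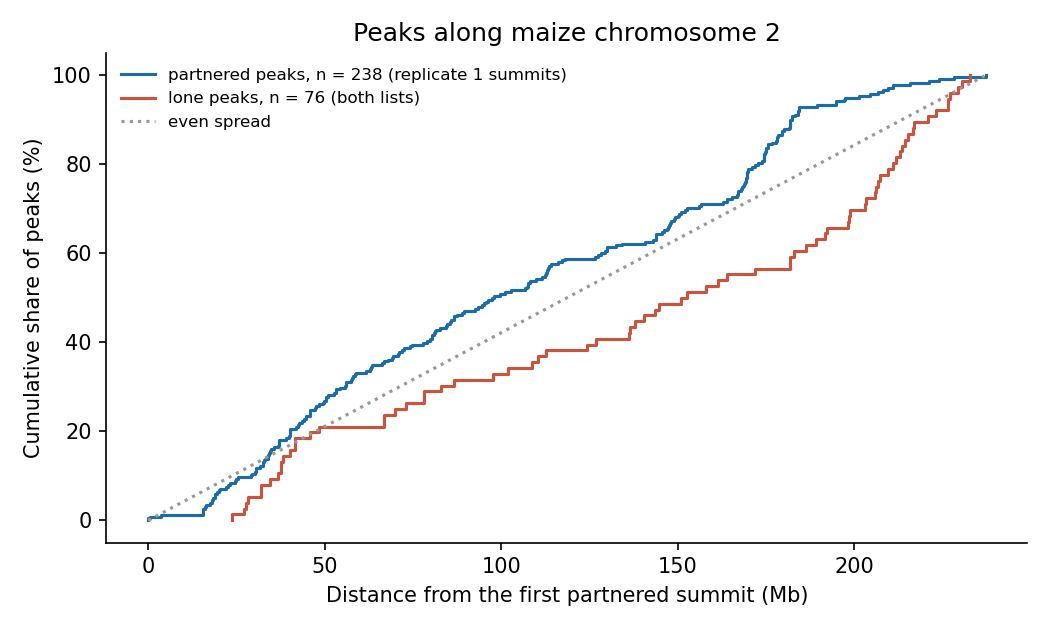
Cumulative share of chromosome 2 peaks (y axis, %) against distance from the first partnered summit (x axis, Mb), for 238 partnered peaks at their replicate 1 summits and 76 lone entries of both lists. The dotted line is an even spread between the first and the last member. The partnered curve is steepest near 170 Mb and nearly flat beyond 190 Mb, where the lone curve climbs.

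Partnered peaks numbered 10.01 per 10 Mb on chromosome 2, taking the chromosome to end at its last peak. The corresponding values were 18.4 on chromosome 1 and 12.7 on chromosome 6, and between 2.17 and 7.09 on the other 7 chromosomes. Chromosome 2 thus ranked after chromosomes 1 and 6 in density.

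Neighbouring members lay far apart for the most part. The median gap between neighbouring summits was 537 kb in replicate 1 (quartiles 178 and 1130 kb, 237 gaps), and 538 kb by the replicate 2 summits. On chromosome 1 the median gap was 166 kb (553 gaps) and on chromosome 6 it was 115 kb (214 gaps), both in replicate 1. Gaps of at most 100 kb made up 16.5% on chromosome 2, against 38.9% on chromosome 1 and 48.6% on chromosome 6. Close neighbours were thus a smaller share of gaps on chromosome 2 than on these 2 chromosomes, a difference that was not tested. Both were denser in partnered peaks, with mean gaps of 541 kb on chromosome 1 and 735 kb on chromosome 6, against 1001 kb on chromosome 2. Gaps on the other 7 chromosomes, which had fewer partnered peaks per 10 Mb, were not compared.

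**Figure D2:**
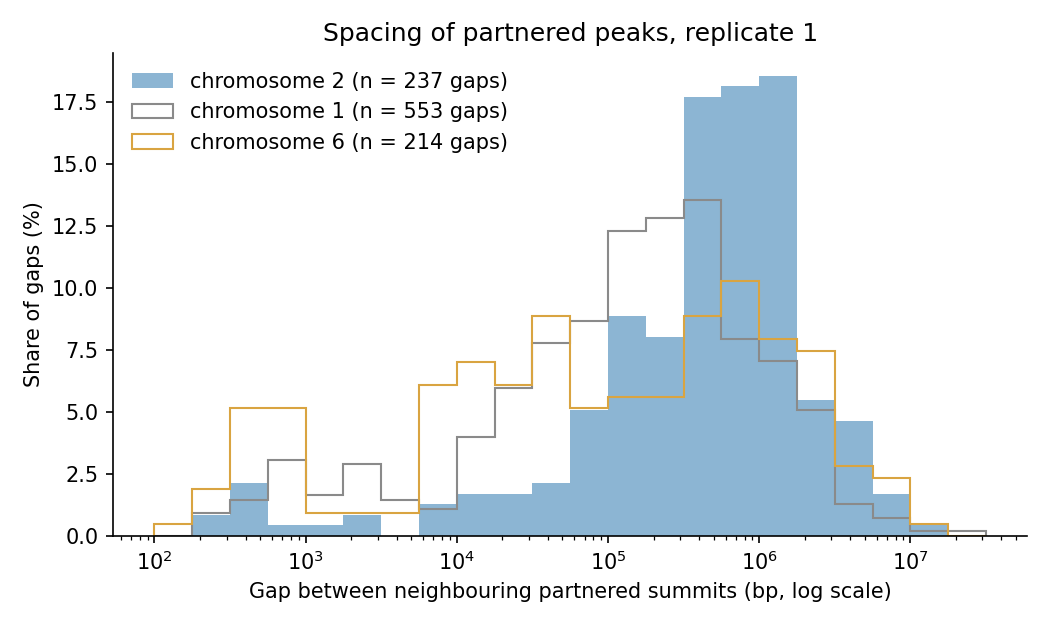
Share of gaps (y axis, %) by the distance between neighbouring partnered summits in replicate 1 (x axis, bp, log scale), for chromosomes 2, 1 and 6. Most chromosome 2 gaps lie above 100 kb, with a median of 537 kb, whereas chromosomes 1 and 6 have medians of 166 and 115 kb.

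The longest empty stretch lay near the start of the chromosome, between summits at 4176805 and 15878078 in replicate 1, a distance of 11.7 Mb. It held no lone peak of either list. The next was near the far end, 8.91 Mb between 228770466 and 237684456, and held 2 lone entries of replicate 1 and 1 of replicate 2. The third ran for 8.51 Mb from 118550661 to 127060727 and held 1 lone entry of replicate 1. In all, 26 of the 237 gaps exceeded 2 Mb, or 10.97%. Such gaps were 5.79% on chromosome 1 and 9.81% on chromosome 6 in replicate 1. The longest gap was 18.70 Mb on chromosome 1 and 12.49 Mb on chromosome 6, so both had a longer one than chromosome 2. These differences were not tested.

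Peaks at the ends of these stretches differed in height between the replicates. The member at 4176670 to 4176943 had a pileup of 35.91 (2.84-fold) in replicate 1, and 16 (5.53-fold) in replicate 2. The member at 118550554 to 118550811 had a pileup of 52.54 (2.82-fold) in replicate 1, and 96 (16.5-fold) in replicate 2. The member at 127060604 to 127061043 had 3.18-fold in replicate 1 and 4.50-fold in replicate 2, and that at 228770311 to 228770678 had 3.67-fold and 3.54-fold. The last member, at 237684212 to 237684509, had 12.26 (3.32-fold) in replicate 1, and 45 (11.5-fold) in replicate 2. The first member of the chromosome, at 442579 to 442840, was tall in replicate 1 only, with a pileup of 169.02 (2.98-fold) there and 22 (7.42-fold) in replicate 2.

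Runs of members with each gap at most 100 kb are called clusters here. There were 27 clusters of at least 2 members, holding 66 of the 238 members or 27.7%, and the other 172 members stood alone. Clusters were not counted on other chromosomes. Gaps short enough to join a cluster were 16.5% on chromosome 2, against 38.9% on chromosome 1 and 48.6% on chromosome 6. Chromosomes 1 and 6 also had more partnered peaks per 10 Mb. Of the clusters, 19 had 2 members, 4 had 3 and 4 had 4. Fold enrichment of clustered and single members had medians of 3.73 and 3.69 in replicate 1, and of 6.35 and 7.71 in replicate 2. Neither comparison was tested, and the quartile ranges overlapped in both replicates.

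The first cluster of 4 spanned 56.5 kb from the replicate 1 summit at 40526452 to that at 40582912. Its peak at 40526321 to 40526604 had a pileup of 88.45 (2.89-fold) in replicate 1 and 15 (4.06-fold) in replicate 2. The neighbour at 40528166 to 40528484 had 86.7 (3.02-fold) in replicate 1 and 57 (18.9-fold) in replicate 2. These adjacent members were alike in replicate 1 and differed in replicate 2. The third, at 40557755 to 40558041, had 17.51 (3.16-fold) and 29 (6.86-fold) in replicates 1 and 2. The fourth, at 40582750 to 40583058, had the highest fold enrichment of the cluster in replicate 1, with 22.77 (6.68-fold), and a pileup of 12 (5.25-fold) in replicate 2. The other clusters of 4 began at 170070035, 174981722 and 182133609 and were 184.5, 86.5 and 98.5 kb wide.

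With gaps of up to 500 kb allowed, the longest run had 12 members over 2.06 Mb, from 168307245 to 170369670. Its replicate 1 fold enrichments lay between 2.42 and 6.50, and those of replicate 2 between 2.55 and 21.9. The highest member of the run in replicate 2 was the partner of the replicate 1 peak at 170193623 to 170193878, which had 3.53-fold enrichment. The highest in replicate 1, at 169082041 to 169082353, had 6.50-fold enrichment, and its partner had 10.2-fold. The next longest run had 7 members over 1.71 Mb from 112724077. It held the tallest replicate 1 member of the chromosome.

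A few members were neighbours at under 1 kb. In replicate 1, 8 gaps were at most 1000 bp, the smallest 185 bp, and in replicate 2 there were also 8, the smallest 49 bp. Replicate 1 gave 11 of its members on 5 intervals that carry more than 1 summit, so its 238 members occupied 232 distinct intervals. Replicate 2 had no such interval. No member repeated another in full.

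The most crowded of these intervals, at 182231339 to 182232217, had 3 replicate 1 summits. They stood at 182231487, 182231672 and 182232090, with pileups of 12.26, 11.38 and 12.26 and fold enrichments of 3.32, 3.90 and 4.18. Replicate 2 had 3 separate peaks there, with summits at 182231517, 182231566 and 182232345, pileups of 12, 14 and 58 and fold enrichments of 5.25, 6.39 and 16.4. The replicate 1 summits were thus nearly equal in height, and replicate 2 had a single tall summit among its 3.

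Another crowded interval differed strongly between the replicates. The replicate 1 interval at 15877992 to 15878430 had summits at 15878078 and 15878315 with 2.03-fold and 2.63-fold enrichment. The replicate 2 peaks had summits at 15878303 and 15878395 with 12.2-fold and 30.5-fold enrichment. Both replicate 1 values were below the lower quartile of the replicate 1 members (3.11), and both replicate 2 values were above the upper quartile of the replicate 2 members (10.998).

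To set partners side by side, each member was matched to the summit of the other list that was nearest to it where the choice was mutual. This gave 236 pairs and left 2 members of each list unmatched, at the crowded intervals that begin at 15877992 and 182231339.

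Fold enrichment was low in replicate 1 and higher in replicate 2. Its median was 3.70 in replicate 1 (quartiles 3.11 and 4.45, range 1.959 to 10.6) and 7.46 in replicate 2 (quartiles 5.29 and 10.998, range 2.55 to 57.9), over 238 members each. Replicate 2 was the higher in 213 of 236 pairs, or 90.3%, where 84.2% of the pairs of all chromosomes were. The median ratio of replicate 2 to replicate 1 within a pair was 1.98 (quartiles 1.36 and 3.31). Which control library set the background of each call was not established, and library depth is unknown here.

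Few members were strongly enriched in both replicates. In 21 of 236 pairs, or 8.90%, both values were at least 5, compared with 23.3% of the pairs of all chromosomes. At least 5-fold enrichment was listed for 29 of the 238 replicate 1 members, or 12.2%, and for 31.3% of the 1312 partnered peaks of the other chromosomes in that replicate. In replicate 2, 189 of the 238 members reached 5-fold, or 79.4%, against 82.3% elsewhere. A single member reached 10-fold in replicate 1, or 0.42%, against 3.96% elsewhere. In replicate 2, 76 members did so, or 31.9%, against 37.3% elsewhere. The shares were lower on chromosome 2 at both levels in both replicates, and the differences were not tested.

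By median, the partnered peaks of chromosome 2 and those elsewhere stood at 3.70 and 4.18 in replicate 1 and at 7.46 and 7.66 in replicate 2. In replicate 1 the chromosome medians ran from 3.35 on chromosome 8 to 4.40 on chromosome 5. Chromosomes 4 and 8 were below chromosome 2. In replicate 2 they ran from 6.80 on chromosome 7 to 8.18 on chromosome 9.

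Ranked by the smaller of the replicates' values, which makes both high by choice, the first pair lay at 87101589 to 87102382. That interval is 794 bp long in replicate 1 and carries 2 summits. The summit at 87101797 had 10.6-fold enrichment (pileup 39.41), and its replicate 2 partner, at 87101349 to 87101749, had 9.13-fold (pileup 26). The summit at 87102220 had 6.09-fold (pileup 19.27), and its partner, at 87101882 to 87102301, had 10.9-fold (pileup 63). Both pairs were among the first 10, and the taller summit of the interval was the left one in replicate 1 and the right one in replicate 2.

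The second pair, at 151375897 to 151376325, was enriched 7.76-fold in replicate 1 and 21.8-fold in replicate 2, with summits 86 bp apart. The peak at 169082041 to 169082353 had 6.50-fold and 10.2-fold. The peak at 23020611 to 23020970 had 6.38-fold and 18.4-fold. In these 3 pairs, replicate 2 was the higher. The pair at 167483197 to 167483528 was the other way round, with 6.23-fold in replicate 1 and 5.84-fold in replicate 2.

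The remaining 5 of the first 10 began at 78427374, 80345366, 81944676 and 132980751, with the summit at 87102220 as the fifth. They had 5.92-fold to 6.13-fold enrichment in replicate 1 and 7.01-fold to 13.9-fold in replicate 2. Of the first 10 pairs, 5 had their replicate 1 summit between 78427502 and 87102220, both included. The bounds of this stretch were set by these pairs after they were seen, and 2 of the 5 lie on 1 replicate 1 interval. The windows from 70 to 80 Mb and from 80 to 90 Mb held 8 and 16 of the 238 members. The grouping was not tested.

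The members with the highest fold enrichment in replicate 2 were not among the first in replicate 1. The first was the partner of the replicate 1 peak at 86121636 to 86121891, at 57.9-fold in replicate 2, where replicate 1 had 3.58-fold. The second, at 23568298 to 23568588, had 43.95-fold in replicate 2 and 3.64-fold in replicate 1. The third, at 189845635 to 189845894, had 36.9-fold and 4.55-fold. In replicate 1 the first 2 were below the median of 3.70, and the other was just above the upper quartile of 4.45.

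Across the 236 pairs, fold enrichment in a replicate did not track that in the other. Spearman's rho was −0.0418 and Pearson's r was −0.0154, given as descriptions across peaks of 2 libraries. The rho was 0.0461 for pileup and 0.0659 for peak length. On the other chromosomes the rho of fold enrichment was 0.0206 over 1293 pairs.

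**Figure D3:**
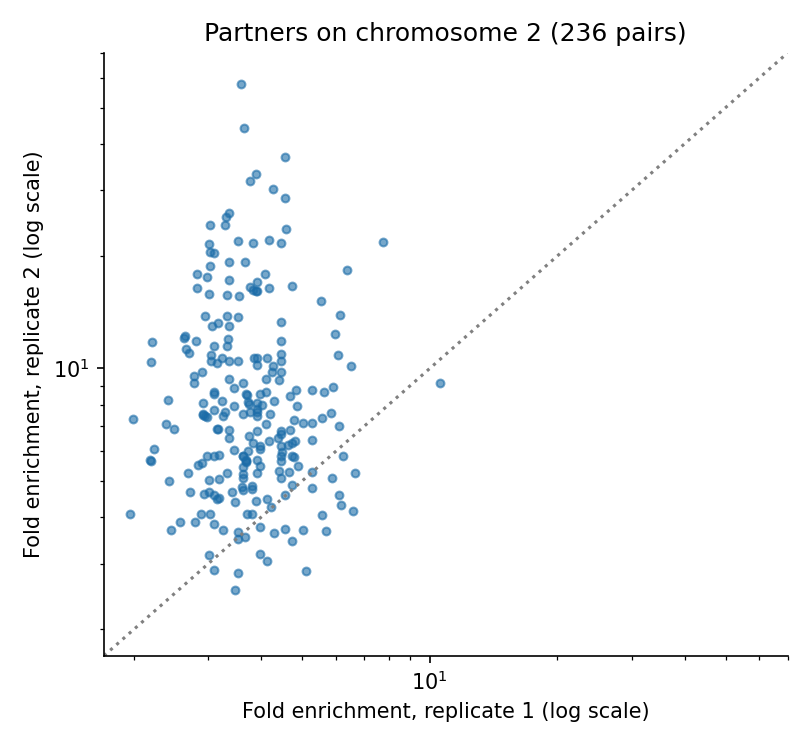
Fold enrichment of each of 236 chromosome 2 pairs in replicate 1 (x axis, log scale) and replicate 2 (y axis, log scale), with equal values on the dotted line. Most points, 213 of 236, lie above the line, and the cloud has no slope (rho −0.0418).

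None of the 3 tallest members of a replicate was among the 3 tallest of the other. The median pileup was 17.51 in replicate 1 (quartiles 13.1 and 36.6, range 9.63 to 257.47) and 29 in replicate 2 (quartiles 20 and 49.75, range 10 to 172). In pileup as deposited, replicate 2 was the taller in 154 of 236 pairs, or 65.3%, where 64.7% of the pairs of all chromosomes were. All 238 replicate 2 members had whole-number pileups and the replicate 1 members did not, so a common scale of height is not established. Pileups under 20 made up 55.9% of the members in replicate 1 and 24.4% in replicate 2. That share was not computed for the other chromosomes. Partnered peaks elsewhere had a median pileup of 20.14 in replicate 1 and 29 in replicate 2. On chromosome 1 the replicate 1 median was 17.51, the same as on chromosome 2. Pileups of the replicate 1 members were multiples of 0.87574 (within 0.01), the shortest being 11 such steps and the commonest value, 11.38, 13 steps in 22 members. The 49 lone entries of replicate 1 had whole-number pileups instead, none of them at such a multiple.

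The tallest replicate 1 member, at 113070567 to 113070895, reached a pileup of 257.47 (2.97-fold), and its partner had 22 (5.84-fold). The next, at 207293924 to 207294245, had 237.33 (2.91-fold), and its partner had 22 (7.54-fold). The third, at 37403519 to 37403825, had 211.93 (2.66-fold), and its partner had 60 (11.3-fold) with its summit at the same base. All 3 had a replicate 1 fold enrichment below the median of that replicate.

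The tallest replicate 2 member, the partner of the replicate 1 peak at 23568298 to 23568588, had a pileup of 172, and the replicate 1 peak had 49.92. The next were the partners of the peaks at 100118743 to 100119053 and 113992903 to 113993296. Both had a pileup of 148 in replicate 2, with 21.7-fold and 15.2-fold enrichment. In replicate 1 they had pileups of 13.14 and 27.15, with 4.45-fold and 5.52-fold enrichment. These 3 tall members of replicate 2 had fold enrichments above the upper quartile of that replicate.

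Taller members had higher fold enrichment in replicate 2 and not in replicate 1. Between pileup and fold enrichment, rho was −0.165 in replicate 1 and 0.728 in replicate 2 (238 members each). A local background was computed for each peak from both values. Its median was 3.999 in replicate 1 (range 2.17 to 86.0) and 2.94 in replicate 2 (range 1.35 to 15.7). Among the 60 tallest replicate 1 members, with pileups from 36.78 to 257.47, the median background was 18.5 and the median fold enrichment 3.10. Among the 60 shortest, from 9.63 to 13.14, they were 2.17 and 3.72. With the replicate 2 members split by pileup into 4 groups of 59 or 60, the median fold enrichment climbed with pileup through 5.27, 6.40, 8.25 and 16.6, while the background median stayed between 2.02 and 3.50. On the other chromosomes, rho between pileup and fold enrichment was 0.156 in replicate 1 and 0.826 in replicate 2 (1312 peaks each).

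Along the chromosome, the median fold enrichment of a 10 Mb window lay between 2.98 and 4.21 in replicate 1, and between 5.29 and 11.5 in replicate 2. Window medians of pileup in replicate 1 ran from 11.38 to 43.79. The highest was from 30 to 40 Mb, where the median background was 11.001 and the replicate 2 median pileup 24. That window was the tallest in replicate 1 and below the median of all members in replicate 2. Window medians of replicate 2 pileup ran from 20 to 56, the highest being from 130 to 140 Mb, which had 4 members and a replicate 1 median of 11.38, the lowest of any window.

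Members were short. The median length was 287.5 bp in replicate 1 (quartiles 263 and 338, range 256 to 932). In replicate 2 it was 363.5 bp (quartiles 302 and 428, range 265 to 689). The intervals of the members summed to 73547 bp of sequence in replicate 1, with overlaps counted once, and to 89222 bp in replicate 2. The replicate 2 peak was the longer in 184 of 236 pairs, or 78.0%, compared with 67.2% of the pairs of all chromosomes.

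Many replicate 1 members were at the shortest length listed. The shortest partnered peak was 256 bp in replicate 1, on chromosome 2 and elsewhere alike, and 38 of the 238 members, or 16.0%, had that length. Elsewhere 9.38% did. In replicate 2 the shortest was 265 bp, and 5.88% of the members and 6.40% of the partnered peaks elsewhere had that length. Peaks of at most 300 bp were 57.6% of the members and 40.9% of those elsewhere in replicate 1, and 23.5% and 22.3% in replicate 2. The median lengths of members and of partnered peaks elsewhere were 287.5 and 317 bp in replicate 1, and were 363.5 and 373 bp in replicate 2. By chromosome, the replicate 1 medians ran from 287.5 bp on chromosome 2 to 342 bp on chromosome 7, and chromosome 9 was close to chromosome 2 at 289 bp. In replicate 2 chromosomes 4 and 8 had shorter medians than chromosome 2, at 360.5 and 338 bp.

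Length went with height in replicate 2 and not in replicate 1. Between length and pileup, rho was −0.0336 in replicate 1 and 0.747 in replicate 2. Elsewhere it was 0.103 and 0.7999. Over the 4 pileup groups of replicate 2, the median length climbed through 288, 332, 389 and 461.5 bp, while over those of replicate 1 it stayed between 279 and 299 bp. The longest replicate 1 member, at 144174311 to 144175242, was 932 bp long with 2 summits. Its summit at 144174696 had 4.55-fold enrichment, and the partner of that summit was 269 bp long with 4.58-fold. The longest replicate 2 member was 689 bp, with 12.1-fold enrichment, and its replicate 1 partner, at 114430046 to 114430326, was 281 bp long with 2.63-fold.

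**Figure D4:**
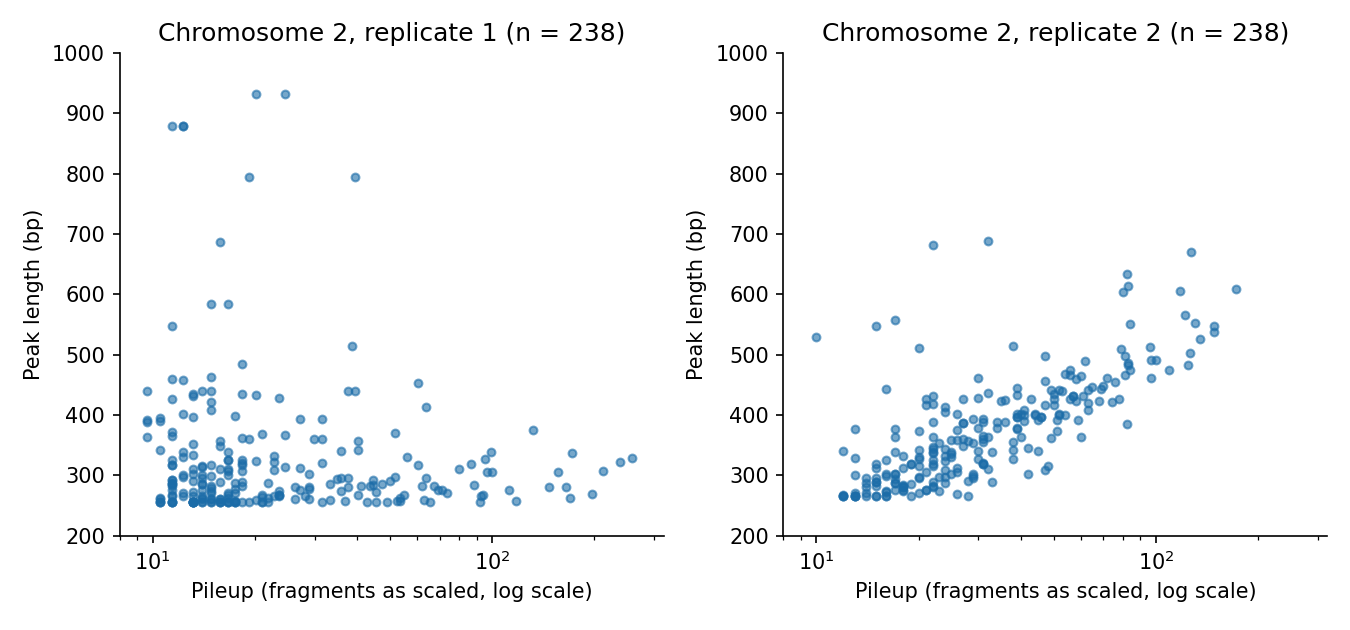
Peak length (y axis, bp) against pileup (x axis, fragments as scaled by the peak caller, log scale) of the 238 chromosome 2 members, with replicate 1 on the left and replicate 2 on the right. Length climbs with pileup in replicate 2 (rho 0.747) and has no such trend in replicate 1 (rho −0.0336). The 60 tallest replicate 1 members have a median length of 284 bp, against 287.5 bp for all replicate 1 members.

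The summit stood nearer to the middle of the peak in replicate 2. The middle 50% of members had the summit between 42.6% and 55.7% of the peak's length in replicate 1, and between 47.5% and 52.2% in replicate 2. The medians were 48.8% and 49.8%.

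Partners overlapped for the most part, which the choice by close summits favours. Whether the lists were also selected for closeness before deposit was not established, so the overlap is not a measure of replication. The rule allowed summits up to 500 bp apart, more than the median length of a member in either replicate, but no pair was over 394 bp apart. The intervals shared at least 1 bp in 225 of 236 pairs, or 95.3%, where 96.3% of the pairs of all chromosomes did. At least 50% of both peaks was shared in 116 pairs, or 49.2%, compared with 46.4%. Each summit lay inside the other peak in 116 pairs as well, or 49.2%, compared with 49.1%. The 11 pairs that did not overlap were up to 135 bp apart. These shares were near those of all chromosomes.

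Summits of partners were a median of 150.5 bp apart (quartiles 58.8 and 237, 236 pairs), and 146 bp on the other chromosomes. They were within 50 bp in 52 pairs, or 22.0%, compared with 18.4% of the pairs of all chromosomes. The replicate 2 summit was at the higher coordinate in 119 pairs and at the lower in 115, and 2 pairs had the same summit. In 12 bins of 50 bp within 300 bp to either side, the counts ran from 12 to 28, and 10 pairs lay beyond 300 bp. The fullest bins were that just above 0, with 28 pairs, and that from −300 to −250 bp, with 26.

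**Figure D5:**
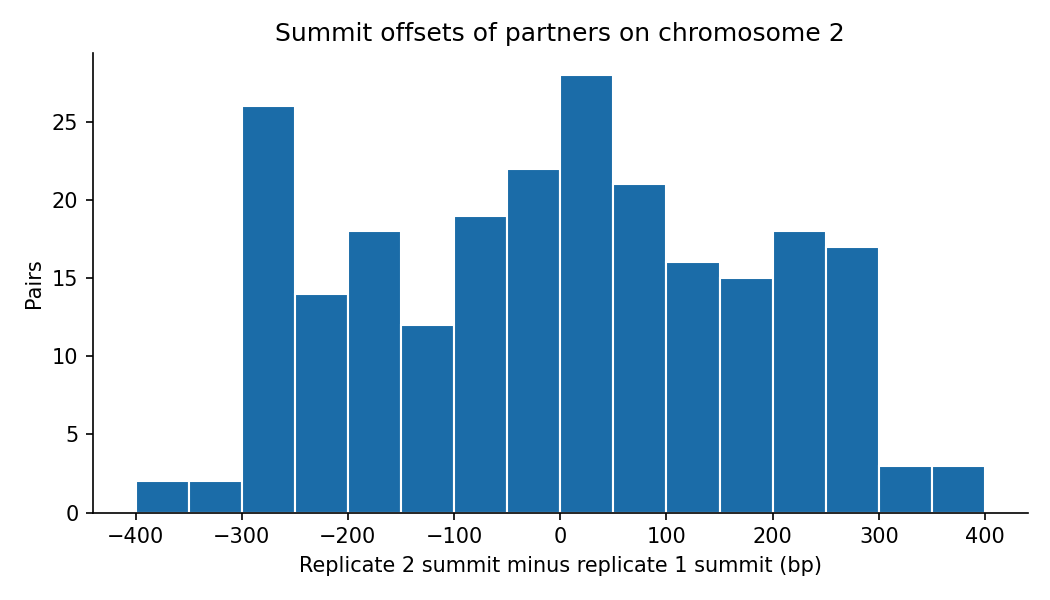
Number of chromosome 2 pairs (y axis) by the replicate 2 summit minus the replicate 1 summit (x axis, bp, bins of 50 bp). Bins within 300 bp of 0 hold 12 to 28 pairs, and 10 pairs lie beyond.

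The pairs with the closest summits were not the most enriched. The same summit was listed in both replicates at 37403663, where replicate 1 had 2.66-fold and replicate 2 had 11.3-fold enrichment, and at 63196701, with 3.35-fold and 9.36-fold. Summits 2 bp apart were listed for the replicate 1 peak at 175599738 to 175600015, with 3.32-fold and 15.8-fold. The pairs with the farthest summits were at 211562759 to 211563014 (394 bp), 197955919 to 197956184 (393 bp) and 224525727 to 224526018 (385 bp). Their fold enrichments were 3.46, 4.73 and 4.57 in replicate 1 and 4.39, 4.88 and 23.6 in replicate 2. The close and the far pairs overlapped in fold enrichment in replicate 2. In replicate 1 they did not, as the highest close pair (3.35-fold) was below the lowest far pair (3.46-fold). With 3 pairs of each kind, this was not tested.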

How the data were processed

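The submitters' processing notes list Bowtie2, with no version, and MACS2 2.0.10, with a list of peaks for each replicate. No source used here gives the genome build or the calling threshold. The deposited pileup is a signal at the summit. Fold enrichment, as deposited, is a ratio of this height to the local background. The headings of columns 7 and 9 held a spreadsheet error, and these columns were read in the standard MACS2 order as the deposited −log10 p and −log10 q. These are the authors' values for each peak and have no error, and depth is unknown here. The files leave open whether the first base of a chromosome is numbered 0 or 1.

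Members were found with Python 3.11.15, pandas 2.3.3 and numpy 2.4.6. Pairs are mutually nearest summits. The background is (pileup + 1) / fold enrichment − 1. Exact (Clopper-Pearson) 95% intervals, from scipy 1.17.1, cover counting error only. With 2 libraries in a single group and members chosen by position, no test was run. The functions were tested on simulated lists. The members, measures and naming rule were chosen with earlier results of these data known. The rule named the first 10 pairs by the smaller fold enrichment, the 3 highest of each replicate by pileup and by fold enrichment, the longest, the 3 closest and 3 farthest summits, the first cluster of 4, the ends of the 3 longest gaps, the first and last member, and the peaks nearest the limit. Crowded intervals, long runs and stretches in Mb were chosen after their values were seen. Alternatives changed the summit limit, overlap, repeated intervals, list threshold, windows, cluster gaps, pairing and measure.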

Additional observations from a re-analysis of the deposited data

How the results depend on the processing

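With summits within 200 bp, the members numbered 152 in replicate 1 and 153 in replicate 2, and with both lists limited to their upper 50% by −log10 q they numbered 30 and 29, both fewer by construction. The fullest windows (25% of them) held 52.5% of members in 5 Mb windows, against 45.8% in 10 Mb windows. Clusters numbered 17 with gaps of up to 50 kb and 52 with gaps of up to 500 kb, which follows from the gap. Partners sharing at least 50% of both peaks were 49.2% of pairs. The other results stayed within limits that differed by the kind of result, and no common spread was measured. They include the medians of length, pileup and fold enrichment, with a limit set from the difference between the replicates. The median gap and the summit distance had a fixed factor as limit. The rank agreement (rho from −0.0703 to 0.0504) had a limit set from the number of pairs. By replicate 2 positions alone, the share in the fullest windows was 45.8%, the clusters 27 and the median gap 538 kb. Leaving out a replicate leaves no partner to define a member by. No paired analysis was possible because no IgG values were analysed here. Depth is unknown, so no limit from it was computed, and many replicate 1 pileups are under 20.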
